A study of Rattus norvegicus with 458 samples.

Results

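miR-219a-2-3p and miR-338-3p are the microRNAs most often named as markers of oligodendrocytes, the glial cells that wrap axons of the brain and spinal cord in myelin. Every name of the miR-level count table that begins, in any of its ;-joined parts, with miR-219 or miR-338, and that is not a precursor name, was taken, which gave 9 of the 7534 names. The rule used names only and no measured value, but the members were chosen with earlier results of these data known. miR-338-3p held 914764 counts, 74.5% of the counts of the 9 names, and miR-219a-2-3p held 207656, 16.9%. miR-338-5p (71412 counts), miR-219a-5p (30287), miR-219a-1-3p (3564) and miR-219b (307) followed. miR-219c-5p (123 counts), miR-219c-3p (82) and a composite name that joins miR-338-3p with 2 predicted rat microRNAs (23) were too low to be tested, so that 6 of the 9 names were among the 1593 names that passed the filter on low counts.

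A microRNA hairpin is cut into a 5p and a 3p arm of about the same length, 1 of which is usually the more abundant, and bases 2 to 8 of a mature microRNA, the seed, are the main determinant of which transcripts it pairs with. miR-219 and miR-338 rise when oligodendrocyte precursors differentiate, and are known for pairing with transcripts of factors that hold precursors in the dividing state. miR-338 lies in an intron of Aatk, a kinase gene used by neurons and glia, and it is also found in Schwann cells, the myelinating glia of peripheral nerve.

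The samples were tissues of naive Sprague Dawley rats of 12 to 13 weeks, 5 males (rats 2 to 6) and 5 females (rats 7 to 11). No treatment, transgene or deletion was named for any group. Small RNA was sequenced from 23 tissues: 4 brain regions (Brainstem, Cerebrum, Cerebellum and Hippocampus), dorsal root ganglion (DRG), and 18 tissues outside the nervous system, among them Cortex and Medulla, which are parts of the kidney. Most tissues had 1 library per rat, while DRG was RNA of another source, whose strain, age and treatment the paper does not give separately. Its 10 libraries are labelled as pools of 5 animals per sex replicated 5 times, and were taken as technical libraries of 2 pools, so that n = 2 for DRG; its tissue and its RNA source cannot be told apart. Counts were summed to 200 samples, whose totals ran from 376401 (a Testicle) to 17725805, and levels are given as CPM, the sample's counts scaled to the same total for every sample; 1 count was worth 2.66 CPM at the lowest total and 0.0564 CPM at the highest. Since each tissue is a mixture, fewer cells of a type and less RNA per cell cannot be told apart in these values.

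Of the libraries that stood apart, 7 were left out before any comparison. Duodenum of rats 2, 4, 7 and 11 and Hippocampus of rats 2, 6 and 7 were left out. miR-124-3p, a neuronal microRNA, was at 5311, 5627 and 4113 CPM in the libraries labelled Duodenum of rats 2, 4 and 7, and at 0.568, 4.05 and 2.38 CPM in those labelled Hippocampus of rats 2, 6 and 7. Duodenum of rat 11 was not high in it, at 2.13 CPM, and held 278 CPM of miR-192-5p, a gut epithelium microRNA. In a second set of libraries, 14 runs of 1 flow cell lane carried an extra base at the 5′ end in a median of 60.4% of the counts of 60 other microRNAs (57.3 to 62.3%), against at most 0.072% in the same libraries' runs on other lanes and at most 0.104% in the 430 other runs. Brainstem of rat 6, Cerebrum of rat 9 and 1 male DRG library were in that lane, so the 5′ ends below are also given without it. The lane was noticed after the isomiR counts were seen, and its runs were kept in the main results.

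Brainstem of rat 9 also stood apart from the other 9 Brainstem samples, which was seen after the values were known. miR-10b-5p, a microRNA of the Hox clusters that marks hindbrain and spinal cord, was at 766 CPM there against 9701 to 16070, miR-10a-5p at 728 against 9684 to 15993, and the summed sensory neuron microRNAs at 109 against 5348 to 6741. That sum was 7648 CPM in Cerebellum of rat 10, against 134 to 463 in the other Cerebellum samples. Both samples were kept under their labels, and values without them stand beside the results.

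The mature sequences of the 6 tested names, from RefSeq on the GRCr8 assembly, are shown because the arms, the hairpins and the seeds are compared below. Capitals mark the seed.
miR-219a-2-3p: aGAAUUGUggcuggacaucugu
miR-219a-5p: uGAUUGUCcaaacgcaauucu
miR-219a-1-3p: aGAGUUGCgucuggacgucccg
miR-219b: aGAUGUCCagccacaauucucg
miR-338-3p: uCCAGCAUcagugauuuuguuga
miR-338-5p: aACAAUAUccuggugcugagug

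miR-219a-2-3p (chr3:33516517-33516538, minus strand) and miR-219a-5p (chr3:33516561-33516581) lie on the hairpin Mir219-2. miR-219a-1-3p (chr20:4831641-4831662, plus strand) lies on the hairpin Mir219a1, which makes the same miR-219a-5p, so counts of miR-219a-5p can come from either hairpin. The 3p arms of the hairpins have 15 of 22 bases in common and different seeds. miR-219b (chr3:33516519-33516540, plus strand) lies opposite miR-219a-2-3p, with 20 bases in common on the other strand. Both arms of miR-338 (chr10:105796345-105796367 for 3p and chr10:105796381-105796402 for 5p, minus strand) come from 1 hairpin of 66 bases. None of the 6 seeds was shared with another of the 6 or with any other mature rat sequence of the reference table. miR-219c-3p and miR-219c-5p are named only.

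miR-338-3p was highest in Brainstem and DRG, and miR-219a-2-3p was highest in Brainstem and low in DRG. miR-219a-2-3p ran from 1335 to 3396 CPM over the 10 Brainstem samples (median 2695, mean 2627 ± 534 SD). In Cerebrum it ran from 736 to 1115 CPM (median 957, 941 ± 119, n = 10), in Hippocampus from 519 to 798 (median 702, 658 ± 114, n = 7) and in Cerebellum from 244 to 375 (median 319, 313 ± 38.3, n = 10). Every Brainstem sample lay above every sample of the other brain regions, every Cerebellum sample lay below them, and Cerebrum and Hippocampus overlapped. The lowest Brainstem value was that of rat 9, without which Brainstem was at 2771 ± 298 CPM (2464 to 3396, n = 9); Cerebellum without rat 10 was at 318 ± 36.8.

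For miR-338-3p, Brainstem ran from 6089 to 10253 CPM (median 8891, 8770 ± 1198, n = 10). Cerebrum ran from 1403 to 4081 (median 3141, 3070 ± 865, n = 10), Hippocampus from 1923 to 3427 (median 2572, 2636 ± 537, n = 7) and Cerebellum from 1465 to 2525 (median 2029, 2037 ± 363, n = 10). Brainstem stood above all samples of the other regions, which overlapped with each other. Brainstem without rat 9, again the lowest, was at 9067 ± 785 CPM (n = 9), and Cerebellum without rat 10 at 2101 ± 320. The lowest Cerebrum value, of rat 9, was the library of the lane described above and was as low in its runs elsewhere.

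**Figure D1:**
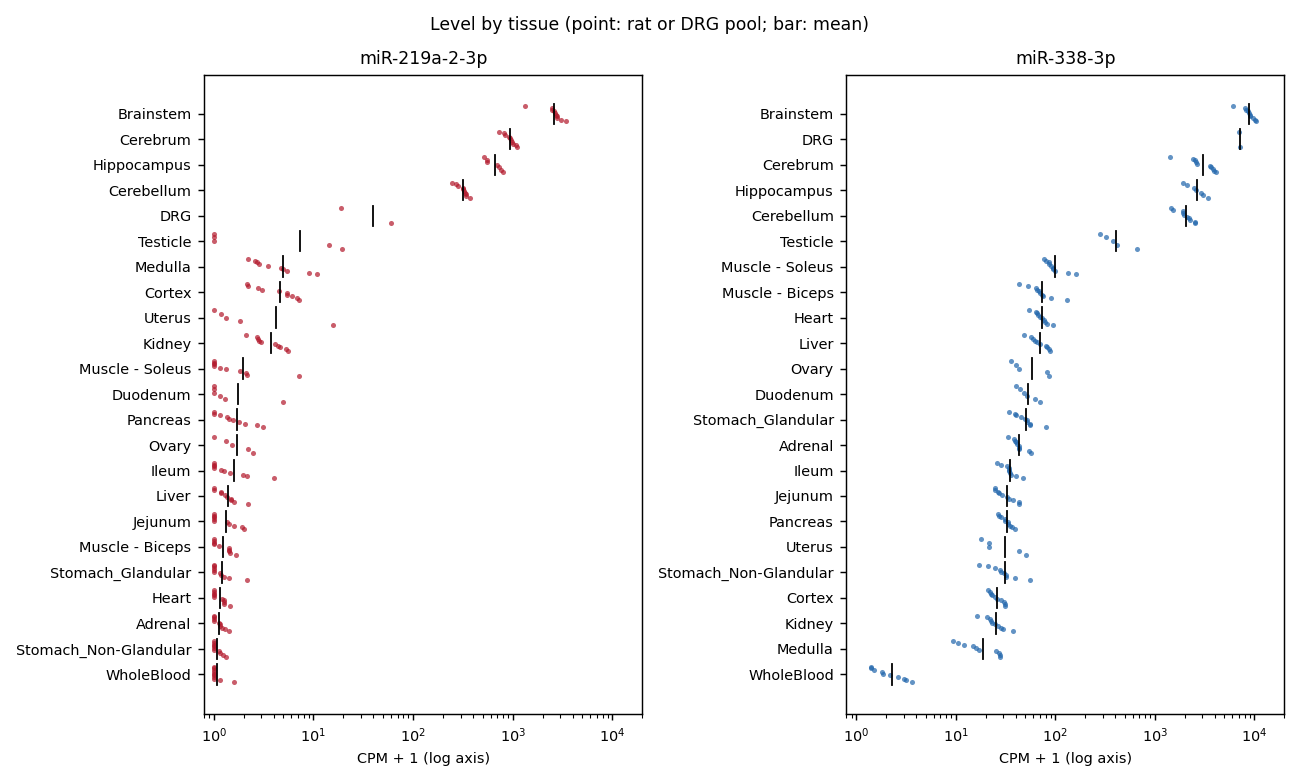
CPM + 1 on a log axis of miR-219a-2-3p (left) and miR-338-3p (right) in the 23 tissues, ordered by mean. Each point is a rat or, for DRG, a pool, and each bar is the mean; the 4 brain regions lead on the left, DRG stands second on the right, and no brain sample falls among the 18 tissues outside the nervous system.

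The less abundant arms followed the same order of regions. miR-338-5p was at 348 to 1329 CPM in Brainstem (median 647), with means of 263 ± 37.4 in Cerebrum, 216 ± 42.7 in Hippocampus and 137 ± 22.5 in Cerebellum. miR-219a-5p was at 237 to 458 CPM in Brainstem (mean 360 ± 68.3), and at means of 116 ± 39.2, 105 ± 21.1 and 52.4 ± 10.2 in Cerebrum, Hippocampus and Cerebellum. In 10 of 10 rats Brainstem was above Cerebrum and above Cerebellum, and in 7 of 7 above Hippocampus, for each of miR-219a-2-3p, miR-219a-5p, miR-338-3p and miR-338-5p.

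The brain regions were then compared by edgeR's quasi-likelihood test, fitted over all 23 tissues and 1593 names with upper quartile scaling, with p-values adjusted over all names by the method of Benjamini and Hochberg. Log2 fold changes below are on that scale, with their standard error. miR-338-3p was higher in Brainstem than in Cerebrum by 1.26 ± 0.22 (adjusted p = 1.84e-06), than in Cerebellum by 1.32 ± 0.22 (2.18e-07) and than in Hippocampus by 1.60 ± 0.25 (9.40e-08). miR-338-5p was higher by 1.08 ± 0.25 (adjusted p = 0.000633), 1.46 ± 0.25 (5.19e-07) and 1.47 ± 0.28 (2.44e-05), and miR-219a-5p by 1.37 ± 0.35 (0.00233), 1.99 ± 0.36 (1.47e-06) and 1.64 ± 0.40 (0.00133), in the same order.

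miR-219a-2-3p was higher in Brainstem than in Cerebellum by 2.25 ± 0.48 (edgeR adjusted p = 6.37e-05) and than in Hippocampus by 1.85 ± 0.54 (0.00934). Against Cerebrum its log2 fold change was 1.23 ± 0.47, with an adjusted p of 0.0601 and a 95% interval from 0.32 to 2.14. With the rat as a replicate block it was 1.31 (adjusted p = 0.0267). It passed the threshold of 0.05 under several other settings, among them TMM scaling (1.50, adjusted p = 0.0132) and a permutation test of log2(CPM + 1) added after the data were seen (1.46 ± 0.13, adjusted p = 4.80e-05 over 12 tests).

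Of the 6 members tested, 3 were called higher in Brainstem than in Cerebrum and 0 lower, where 6.15% of all names were called higher and 7.85% lower. Against Cerebellum 4 of 6 were higher (12.6% of all names, and 15.5% lower), and against Hippocampus 4 of 6 (6.78%, and 6.4% lower). miR-219a-1-3p and miR-219b were called in none of the 3 comparisons, with log2 fold changes between -0.91 and 0.34. The share of higher and lower calls over all names moved with the scaling. There were 98 higher and 125 lower names against Cerebrum (149 and 81 with TMM, 169 and 92 with library totals), 200 and 247 against Cerebellum (377 and 128, 455 and 89, and 369 and 135 with DESeq2) and 108 and 102 against Hippocampus (181 and 69, 173 and 88). Leaving out all tissues of rat 9 gave 1.33 (adjusted p = 0.0475) for miR-219a-2-3p and 1.27 (2.99e-06) for miR-338-3p against Cerebrum, and leaving out rat 10 gave 2.23 (0.000252) and 1.26 (1.50e-06) against Cerebellum. The direction of the 4 members higher in Brainstem was the same under each of these scalings.

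Cerebrum, Cerebellum and Hippocampus were compared in the same way. miR-219a-2-3p differed between Cerebrum and Cerebellum by 1.02 ± 0.46 (edgeR adjusted p = 0.0939), and Cerebrum was above Cerebellum in 10 of 10 rats without overlap. TMM scaling (1.33, adjusted p = 0.0166), library totals (1.59, 0.00304) and the permutation test of log2(CPM + 1) (1.58 ± 0.08, 4.80e-05) passed the threshold, and by the last of these the difference was as large as that between Brainstem and Cerebrum (1.46). miR-338-3p differed between them by 0.06 ± 0.22 (adjusted p = 0.946; interval -0.37 to 0.48), while with library totals alone the difference was 0.59 (0.00505). Cerebellum against Hippocampus gave 0.28 ± 0.24 for miR-338-3p (0.481) with upper quartile scaling and -0.37 ± 0.14 by permutation of log2(CPM + 1) (0.0213), so that its direction depended on the scaling. miR-219a-1-3p was lower in Cerebrum than in Cerebellum by 1.10 ± 0.31 on the log2 scale (-1.10, adjusted p = 0.00389) and higher in Cerebellum than in Hippocampus by 1.02 ± 0.35 (0.0242).

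In these last comparisons 1 of 6 members was lower in Cerebrum than in Cerebellum (13.4% of all names, and 13.1% higher), 0 of 6 differed between Cerebrum and Hippocampus (2.89% of all names were higher and 0.816% lower; edgeR, with 0 of the 6 also at an unadjusted p under 0.05, and 0 called by DESeq2; the permutation test of log2(CPM + 1) called miR-219a-2-3p, at 0.52 ± 0.11 with adjusted p = 0.000548, higher in 7 of 7 rats), and 1 of 6 was higher in Cerebellum than in Hippocampus (11.4%, and 9.42% lower). The splits of all names were 209 higher and 213 lower for Cerebrum against Cerebellum (303 and 143 with TMM, 418 and 113 with totals, 360 and 136 with DESeq2), 46 and 13 for Cerebrum against Hippocampus (67 and 45 with DESeq2) and 181 and 150 for Cerebellum against Hippocampus (133 and 226, 100 and 340, 126 and 304).

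**Figure D2:**
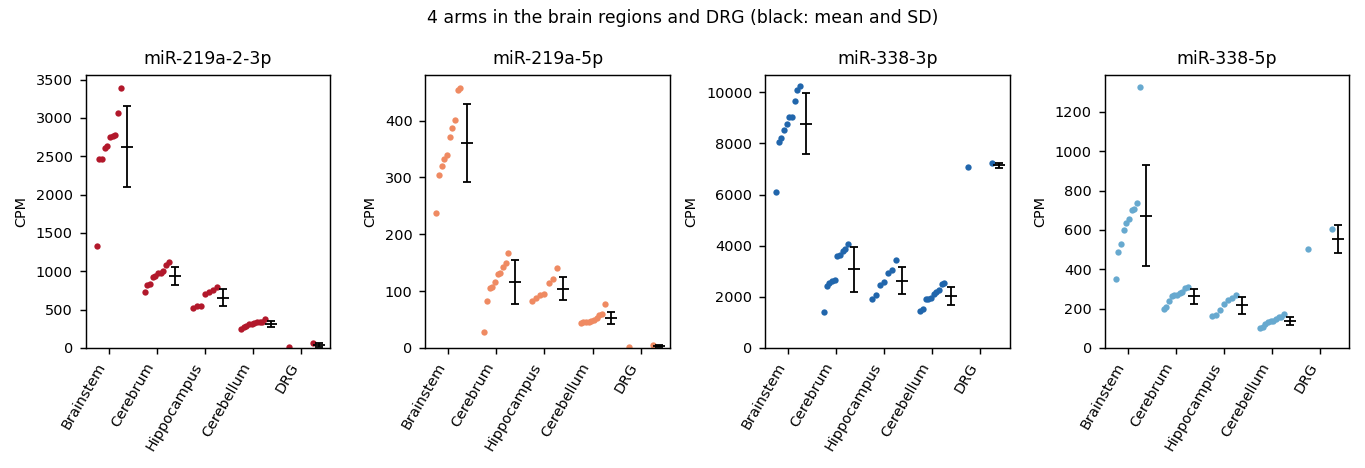
CPM of miR-219a-2-3p, miR-219a-5p, miR-338-3p and miR-338-5p in Brainstem, Cerebrum, Hippocampus, Cerebellum and DRG, a panel per microRNA with its own axis from 0. Points are rats (2 pools for DRG) and black bars are mean and SD (for DRG, the SD of 2 pools); all 4 are highest in Brainstem among the brain regions, and DRG is near Brainstem for both arms of miR-338 and near 0 for both arms of miR-219a.

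DRG, whose myelinating cells are Schwann cells and which has no oligodendrocytes in the ganglion proper, separated the miR-338 arms from the miR-219a arms. miR-338-3p was at 7219 CPM in the male pool and 7060 in the female pool, and miR-338-5p at 605 and 505 CPM. miR-219a-2-3p was at 59.3 and 17.7 CPM, and miR-219a-5p had a mean of 3.44 CPM. Both pools thus lay within the Brainstem range for the miR-338 arms and below every brain sample for the miR-219a arms. For miR-338-3p this rested on Brainstem of rat 9 (6089 CPM). The other 9 Brainstem samples ran from 8071 to 10253 CPM, above both pools. For miR-338-5p those 9 ran from 490 to 1329 CPM, a range that still held both pools.

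Against the mean of the 4 brain regions, DRG was higher for miR-338-3p by 1.46 ± 0.30 (edgeR adjusted p = 2.84e-05) and for miR-338-5p by 1.46 ± 0.34 (0.000267). It was lower for miR-219a-2-3p, with a log2 fold change of -4.12 ± 1.07 (0.00108), and for miR-219a-5p, with -4.78 ± 0.84 (7.27e-07). Without the female pool, which leaves 1 DRG sample whose spread is taken from the other tissues, the differences were 1.10 for miR-338-3p (adjusted p = 0.113), 1.22 for miR-338-5p (0.103) and -3.79 for miR-219a-2-3p (0.0802) and none of the 3 passed the threshold. Of the 6 members, 2 were called higher (16.9% of all names) and 2 lower (11.3%) in DRG.

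Against Brainstem alone, miR-338-3p differed by 0.42 ± 0.36 (edgeR adjusted p = 0.460), with an interval from -0.30 to 1.13 and miR-338-5p by 0.46 ± 0.41 (0.473). miR-219a-2-3p was lower, with -5.45 ± 1.18 (8.49e-05), and so was miR-219a-5p, with -6.03 ± 0.91 (1.71e-08). These 2 of 6 members stood beside 8.54% of all names called lower and 13.6% called higher. All names split into 270 higher and 180 lower for DRG against brain (209 and 248 with totals, 171 and 294 with DESeq2) and 217 and 136 for DRG against Brainstem (143 and 274, 136 and 303).

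Within the pools, the 5 technical libraries of the male pool held 31.7 to 79.7 CPM of miR-219a-2-3p (median 50.5), and those of the female pool 8.30 to 55.5 (median 9.84). miR-338-3p ran from 6413 to 8494 CPM in the male libraries and from 4734 to 8540 in the female ones. Of the female libraries 1 was at 55.5 CPM and the other 4 at 8.30 to 11, so that libraries labelled as the same pool differed as widely as the pools did.

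Outside the nervous system both microRNAs were low. Over the 161 samples of the 18 tissues miR-219a-2-3p ran from 0 to 18.4 CPM (median 0.269), against 244 to 3396 in the 37 brain samples. miR-338-3p ran from 0.398 to 654 CPM (median 38.2), against 1403 to 10253. miR-219a-5p (0 to 14.9 against 28.7 to 458 CPM) and miR-338-5p (0 to 28.8 against 100 to 1329) did not overlap either. Of the 1593 names tested, 86 (5.4%) had every brain sample above every sample outside the nervous system.

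miR-219a-2-3p had a log2 fold change of 8.39 ± 0.21 between brain and the other tissues (edgeR adjusted p = 4.12e-91) and miR-338-3p one of 4.48 ± 0.08 (3.01e-113). miR-219a-5p was higher in brain by 4.64 ± 0.13 (1.31e-80) and miR-338-5p by 4.46 ± 0.09 (7.98e-103). These 4 of 6 members were higher where 26% of all names were. miR-219a-1-3p was lower in brain, at -0.89 ± 0.14 (4.10e-09, 35.6% of all names), but its value was 1.11 with library totals and 0.088 with DESeq2. Library totals moved the median of all names by 1.45 in this comparison, which turned 414 higher and 567 lower names into 766 and 157 (517 and 464 with TMM).

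DRG against the same tissues was higher for miR-338-3p by 5.94 ± 0.16 (edgeR adjusted p = 1.31e-84), for miR-338-5p by 5.92 ± 0.18 (2.31e-74) and for miR-219a-2-3p by 4.27 ± 0.45 (1.95e-16), 3 of 6 members beside 16.1% of all names higher and 8.1% lower (256 higher and 129 lower; 396 and 62 with TMM, 561 and 30 with totals). miR-219a-5p gave -0.14 ± 0.59 (1.00). Thus miR-219a-2-3p, although low in DRG, was above its average level outside the nervous system. Its female pool (17.7 CPM) still lay below the highest sample there (18.4 CPM, a Testicle). miR-219a-5p was not detectably above its own average there on upper quartile scaling, and was higher by 1.48 with library totals (edgeR adjusted p = 0.0028).

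In the order of means, miR-338-3p fell from Brainstem (8770 CPM) and DRG (7139) to the other brain regions, then to Testicle (410 ± 146, n = 5), Muscle - Soleus (99.5), Muscle - Biceps (72.3), Heart (72.1), Liver (69.2), Ovary (56.9), Duodenum (52.1), Stomach_Glandular (49.6) and Adrenal (42.4). Ileum (33.9), Jejunum (31.4), Pancreas (31.4), Uterus (30.0), Stomach_Non-Glandular (30.0), Cortex (25.2), Kidney (24.2) and Medulla (17.8) followed, and WholeBlood was last at 1.27 ± 0.804 CPM. Among the 22 pairs of neighbours in this order 9 differed by the edgeR test, of which 7 in the order's direction. Brainstem and DRG did not, while Cerebellum and Testicle differed by 3.01 on the log2 scale and Medulla and WholeBlood by 1.34. Adrenal against Ileum (-0.68) and Pancreas against Uterus (-0.85) were called against the order of CPM. Since the same values set the order, these tests only say which neighbours edgeR did not tell apart.

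miR-219a-2-3p fell from Cerebellum (313 CPM) to DRG (38.5), Testicle (6.33), Medulla (3.90), Cortex (3.57), Uterus (3.19) and Kidney (2.74), and its mean was at most 0.974 CPM in every other tissue. The Uterus mean rested on rat 7 (14.6 CPM), and without it the mean was 0.331 CPM (n = 4). In Kidney, Cortex and Medulla every one of the 10 samples each was above 0. In Testicle 3 of 5 samples were at 0 and the highest was at 18.4 CPM, and in WholeBlood 8 of 10 samples were at 0 (mean 0.0738). Of the 22 neighbours 3 differed: Cerebellum and DRG by 3.20, DRG and Testicle by 2.98, and Kidney and Muscle - Soleus by 1.98. The other neighbours were not called by edgeR. Among these were Brainstem and Cerebrum, and Hippocampus and Cerebellum, whose samples did not overlap in CPM.

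The ratio of the 2 leading microRNAs within a library does not depend on the scaling of libraries. The mean log2 ratio of miR-219a-2-3p to miR-338-3p was -1.76 in Brainstem, -1.65 in Cerebrum, -1.99 in Hippocampus, -2.69 in Cerebellum and -7.78 in DRG. Brainstem and Cerebrum differed by -0.11 ± 0.16 (permutation test, two-sided, adjusted p = 0.571 over 6 pairs). Cerebellum had less miR-219a-2-3p per miR-338-3p than Brainstem, by 0.93 ± 0.12 (6.00e-05), and than Cerebrum, by 1.04 ± 0.16 (6.00e-05), where each unadjusted p was the smallest that 100000 resamples can give. It was also below Hippocampus, at -0.69 ± 0.10 (exact permutation test, 0.000206). Cerebrum was above Hippocampus by 0.34 ± 0.15 (exact, 0.0179), a difference of 0.20 without rat 9 and one that missed the threshold without rat 8 (0.32, adjusted p = 0.0503), and Brainstem above Hippocampus by 0.23 ± 0.10, with an adjusted p of 0.0531.

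**Figure D3:**
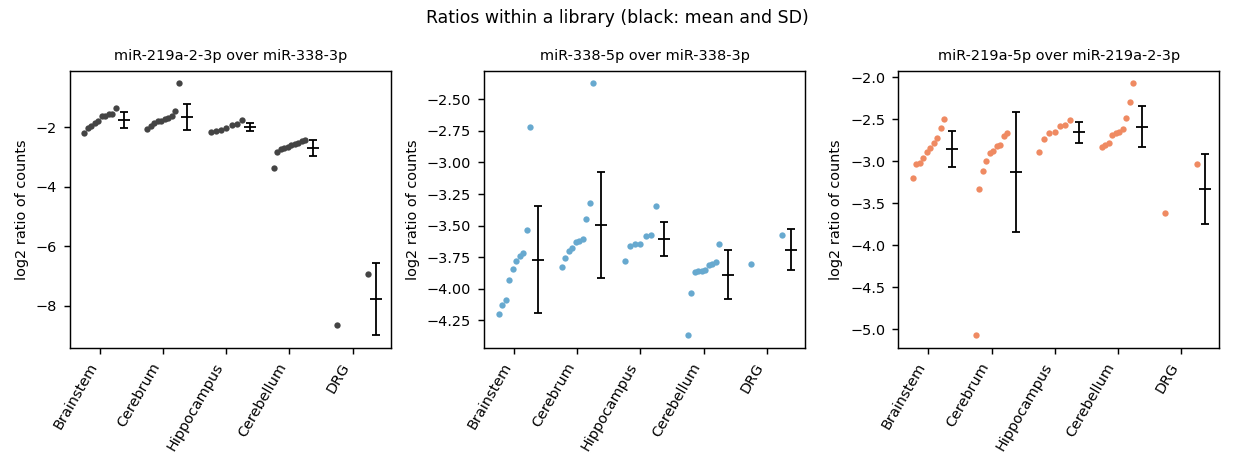
Log2 ratio of counts within each library, plus 0.5 each, for miR-219a-2-3p over miR-338-3p, miR-338-5p over miR-338-3p and miR-219a-5p over miR-219a-2-3p, in the 4 brain regions and DRG. Points are rats or pools and black bars are mean and SD. On the left Cerebellum lies below the other brain regions and DRG far below all of them. For both arm ratios DRG lies within the range of the brain samples.

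The arms of miR-338 had similar mean proportions in the brain regions and DRG, while single samples spread more widely. miR-338-5p made up a mean of 7.07% of the 2 arms' counts in Brainstem, 8.41% in Cerebrum, 7.61% in Hippocampus, 6.36% in Cerebellum and 7.20% in DRG. Single brain samples ran from 4.61% in Cerebellum to 16.2% in Cerebrum. The log2 ratio of 5p to 3p was higher in Cerebrum than in Cerebellum by 0.39 ± 0.15 (permutation test, adjusted p = 0.00309 over 12 tests) and lower in Cerebellum than in Hippocampus, at -0.28 ± 0.08 (exact permutation test, 0.00309).

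miR-219a-5p made up 12.2% of the summed counts of miR-219a-5p and miR-219a-2-3p in Brainstem and 97.0% in Adrenal. Single brain samples ran from 2.87% in Cerebrum to 19.2% in Cerebellum. The log2 ratio of miR-219a-5p to miR-219a-2-3p was lower in Cerebrum than in Cerebellum, at -0.54 ± 0.24 (permutation test, adjusted p = 0.00584), and than in Hippocampus, at -0.47 ± 0.23 (exact permutation test, 0.0148). Without rat 9, whose Cerebrum ratio was -5.08, these differences were -0.35 and -0.23, both still past the threshold. Brainstem was lower than Cerebellum by -0.27 ± 0.10 (permutation test, 0.0375), a call that was lost when the rat was a block (0.0820), and also without any of rats 3, 4, 5, 7, 10 or 11 (-0.33 to -0.19 over the rats left out).

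The hairpin of origin of the miR-219a counts changed between brain and other tissues. The 3p arms differ in sequence, and miR-219a-1-3p, of Mir219a1, made up 0.203% of the 3p counts of both hairpins in Brainstem, 0.381% in Cerebrum, 0.607% in Hippocampus and 1.61% in Cerebellum. In Adrenal it made up 99.3%, in Liver 90.9%, in Kidney 45.2% and in DRG 8.41%. Adrenal had the highest level of miR-219a-1-3p, 2.19 to 23.1 CPM (median 21.8, 19.05 ± 6.38, n = 10), where only rat 8 lay below 17.4 CPM. Brainstem (5.28 CPM), Cerebellum (5.00) and Ovary (4.97) came next, so that miR-219a-1-3p was present in brain at a level like that of many tissues and was outnumbered there by the 3p arm of Mir219-2.

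miR-219a-5p has the same letters in both hairpins, but reads that run past the annotated end carry CG in Mir219a1 and TG in Mir219-2. These 3 read sequences, from the isomiR table (which lists T for U), show the forms; capitals mark the seed.
ending with the bases of Mir219-2: tGATTGTCcaaacgcaattcttg
ending with the bases of Mir219a1: tGATTGTCcaaacgcaattctcgt
with a C-to-T change and an end 1 base past the annotated one: tGATTGTCcaaacgtaattctt

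The form ending in TG held 33.1% of all miR-219a-5p counts and the form ending in CGT 1.30%. Of the brain counts that could be told apart, 98 carried the bases of Mir219a1 and 10282 those of Mir219-2, a share of 0.944% (95% Wilson interval 0.775 to 1.15%). Outside the nervous system 619 carried the bases of Mir219a1 and 104 those of Mir219-2, 85.6% (82.9 to 88.0%). The share was 99.2% in Adrenal (119 of 120), 99.4% in Liver and 100% in Pancreas (94 of 94, interval 96.1 to 100%), and it was near the middle in Kidney (46.8%), Cortex (50%) and Medulla (46.9%). In DRG 7 counts were of Mir219a1 and 19 of Mir219-2 (26.9%, 13.7 to 46.1%). These intervals cover counting error only, and the bases told 35.9% of the brain counts and 53.8% of those outside the nervous system apart.

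**Figure D4:**
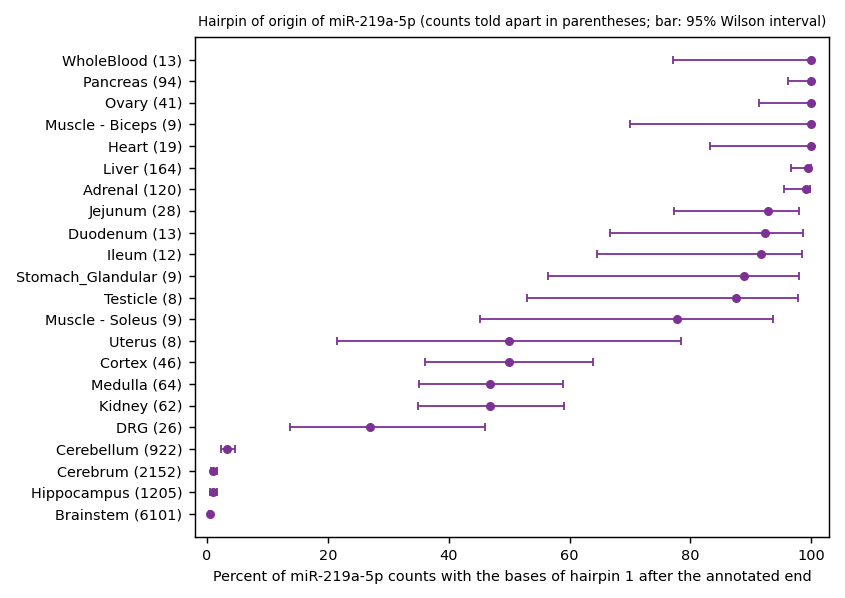
Percent of miR-219a-5p counts whose bases after the annotated end are those of hairpin Mir219a1, by tissue with at least 5 counts told apart, with their number in parentheses and the 95% Wilson interval as a bar. The brain regions lie between 0.541 and 3.25%, the kidney tissues near 50% and Adrenal, Liver, Pancreas and Ovary at 99.2% or above.

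A C-to-T change at position 15 of miR-219a-5p, counted from 1 at its 5′ end (C15T), was found in each of the brain regions. It made up a mean of 12.0 ± 2.3% of miR-219a-5p counts per library in Brainstem, 14.1 ± 1.4% in Cerebrum, 13.9 ± 2.2% in Cerebellum and 12.5 ± 1.5% in Hippocampus, and single libraries held 8.28 to 17%. Outside the nervous system it was seen in 16 of 1344 counts (1.19%, interval 0.734 to 1.93%), and in DRG in 1 of 65. By flow cell the share ran from 11.5 to 13.7% over the brain libraries. The changed form ended 1 base past the annotated end in 73.5% of its 3618 counts and 2 bases past it in 0.94%, whereas the unchanged form did so in 11.8 and 42.9% of 23946 counts. Whether the change is in the RNA, in a further locus or in the assignment of reads was not tested.

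The 3p arms differed in how they were trimmed. miR-338-3p was nearly always shorter at its 3′ end than the annotated sequence, and miR-219a-2-3p was not. The most abundant reads of both, with the miR-219a-2-3p form that starts 1 base earlier and the miR-338-5p forms, were the following; capitals mark bases 2 to 8 of the read as printed.
miR-338-3p, 2 bases shorter: tCCAGCATcagtgattttgtt
miR-338-3p, annotated length: tCCAGCATcagtgattttgttga
miR-219a-2-3p, annotated: aGAATTGTggctggacatctgt
miR-219a-2-3p, 1 base earlier: gAGAATTGtggctggacatctg
miR-338-5p, 1 base shorter: aACAATATcctggtgctgagt
miR-338-5p, 2 bases earlier: cCAACAATatcctggtgctg

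The shorter form held 56.0% of miR-338-3p counts and the annotated length 2.33%. For miR-219a-2-3p the annotated sequence held 59.1% and the form 1 base earlier 7.01%. For miR-338-5p the listed forms held 59.9 and 5.55%. Among exactly matching reads outside the lane of extra bases, those that start 1 base before the annotated end of miR-219a-2-3p made up 13.7% of its counts and have the seed AGAAUUG, and those that start 2 bases early made up 18.4% of miR-338-5p counts, with the seed CAACAAU. Neither seed is that of any mature rat sequence in the reference table. Reads of miR-338-3p that start elsewhere made up 0.96 to 1.44% by region.

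Start sites differed between brain regions by a few percentage points. Another 5′ end was found in 15.4 ± 1.0% of miR-219a-2-3p counts in Brainstem, 11.3 ± 0.8% in Cerebrum, 14.3 ± 1.2% in Cerebellum and 12.2 ± 1.7% in Hippocampus without that lane, and DRG stood at 17.6%. The difference between Brainstem and Cerebrum was 4.09 ± 0.41 percentage points (permutation test, adjusted p = 0.00024 over 72 tests). For miR-338-5p the order differed: Cerebellum had the most (30.6 ± 3.0%), then Cerebrum (25.6%), Hippocampus (25.1%) and Brainstem (21.5 ± 3.9%), and Brainstem and Cerebellum differed by -9.10 ± 1.57 points (permutation test, 0.00024). With all runs the Brainstem mean of miR-219a-2-3p was 19.8 ± 14.1%, its highest library at 59.8%. The permutation test then gave 3.83 points between Brainstem and Cerebrum (adjusted p = 0.719), and Brainstem and Cerebellum of miR-338-5p no longer passed the threshold.

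**Figure D5:**
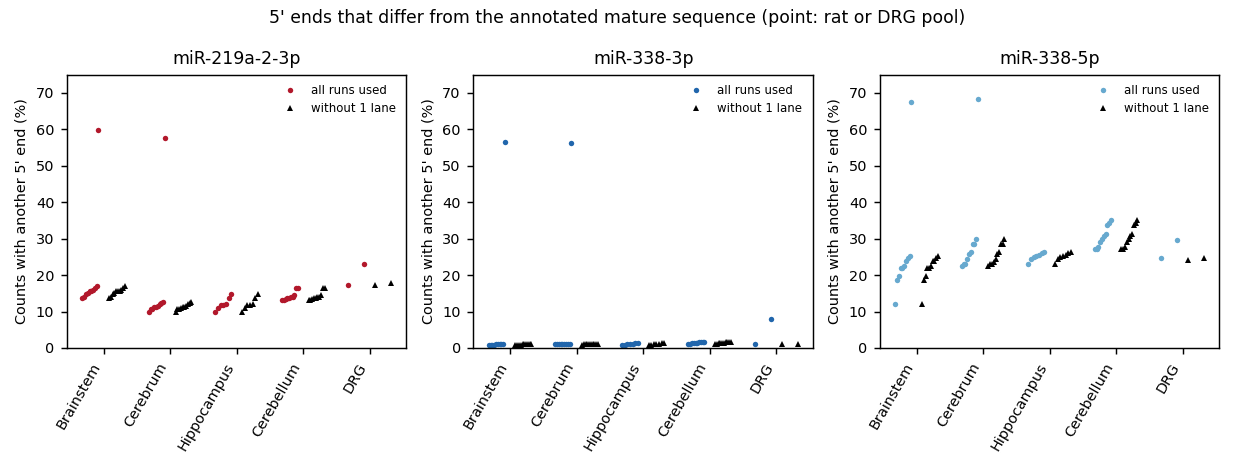
Percent of counts whose 5′ end differs from the annotated one, per rat or DRG pool, for miR-219a-2-3p, miR-338-3p and miR-338-5p in the 4 brain regions and DRG. Colored circles use all runs and black triangles leave out 1 flow cell lane; the circles above 55% in Brainstem and Cerebrum are rats 6 and 9, and they join the others without the lane.

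At the 3′ end, 25.4 ± 1.2% of miR-219a-2-3p counts were shorter than annotated in Brainstem, 21.2 ± 0.5% in Cerebrum, 24.8 ± 1.8% in Cerebellum and 23.2 ± 1.5% in Hippocampus. Cerebrum was lower than Brainstem, by 4.22 ± 0.42 points (permutation test, adjusted p = 0.00072), and than Cerebellum, at -3.64 ± 0.58 (permutation test, 0.00173). miR-338-3p had the same order in a narrow range, 97.3, 96.3, 97.2 and 96.8%, with 0.98 ± 0.17 points between Brainstem and Cerebrum (permutation test, 0.00173). Of 72 comparisons of ends, 13 passed the threshold with all runs and 26 without the lane. With the rat as a block and all runs, those of the lane included, 0 of the 72 passed. There 19 had an unadjusted p under 0.05, and the smallest p that sign flips of 10 rats can give is 0.00195. The block was not tried without the lane.

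The loop between the arms of Mir219-2 was also read. The precursor name chr3_11348-pre;mir-219a-2-pre, which is not a member, held 3981 counts. The read shown here held 37.3% of them; it runs from the loop to the first annotated base of the 3p arm, its last base.
loop read of Mir219-2 (chr3:33516538-33516558, minus strand): tacgagtctgcggccaaccga

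The precursor name, all its reads together, was at a mean of 47.0 CPM in Brainstem, 17.4 in Cerebrum, 13.5 in Hippocampus, 8.88 in Cerebellum and 0.540 in DRG, and at most 0.0539 CPM in the mean of any tissue outside the nervous system.

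By edgeR no member differed between females and males past the threshold. Over 5 members and 19 tissues with both sexes, 0 of 95 comparisons passed the threshold by edgeR, 6 had an unadjusted p under 0.05 and the smallest adjusted p was 0.131 (over all names and tissues 1.02% of the tests were called, and 0 to 8.46% of 1230 names by tissue). DESeq2 called 3: miR-338-3p in Cerebrum (-0.62, female against male, adjusted p = 0.0493), miR-219a-2-3p in Muscle - Soleus (2.78, 0.0183) and miR-219a-5p in Muscle - Soleus (2.14, 0.0489). In edgeR without a single rat, 1 was called without rat 6 (miR-219a-2-3p in Muscle - Soleus, 4.83), without rat 7 (3.07, the same) and without rat 8 (miR-338-3p in WholeBlood, -1.51). miR-219a-2-3p in Muscle - Soleus rests on a few counts. In Cerebrum the CPM of miR-338-3p did not overlap between the sexes. It was 1403 to 2666 in the 5 females and 3616 to 4081 in the 5 males. The edgeR log2 fold change there was -0.62 (adjusted p = 0.688). The CPM of miR-219a-2-3p in Cerebrum overlapped between the sexes.

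Across rats of a region, miR-219a-2-3p and miR-338-3p were related by Pearson's r of 0.71 in Brainstem (Spearman's rho 0.05), 0.43 in Cerebrum (0.71), 0.34 in Cerebellum (0.41) and 0.88 in Hippocampus (0.86). None of the 4 permutation tests of r passed the threshold after adjustment (0.157, 0.295, 0.344 and, by the exact test, 0.0556), nor did those of rho (0.893, 0.0546, 0.332 and 0.0546). Without the 2 rats farthest from the median, r was -0.30 in Brainstem, 0.30 in Cerebrum, 0.88 in Cerebellum and 0.68 in Hippocampus, so that on CPM the relation in Brainstem did not hold without rats 9 and 11. On upper quartile scaled levels r in Brainstem was 0.67 and stayed positive without the 2 rats then farthest from the median, rats 9 and 6 (0.53). On that scale the r of Hippocampus (0.86, exact permutation test, adjusted p = 0.0302, n = 7) and Spearman's rho of Hippocampus (0.89, exact, 0.0246) and of Cerebrum (0.84, permutation test, 0.0164) passed the threshold.

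Other microRNAs that have been linked to oligodendrocytes or their precursors were higher in Brainstem than in Cerebellum for the most part, and not so against Cerebrum. Of 14 on that list (chosen with earlier results of these data known) 13 were tested, 2 were higher and 2 lower in Brainstem than in Cerebrum, with a median log2 fold change of -0.16 against -0.01 over all names. miR-7a-5p (-1.0 ± 0.27, edgeR adjusted p = 0.00386) and miR-212-3p (-2.43 ± 0.27, 3.92e-14), which is also a neuronal microRNA, were the furthest from 0. The summed level of the list was 9335 to 13691 CPM in Brainstem and 10981 to 16538 in Cerebrum, but 2662 to 4109 in Cerebellum. The largest part of the sum was miR-138-5p, which is also on the list of neuronal microRNAs. Its means were 6984 CPM in Brainstem, 9588 in Cerebrum and 2217 in Cerebellum. Against Cerebellum 9 of 13 were higher in Brainstem and 1 lower (12.6 and 15.5% of all names).

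Lists of microRNAs of other cell types moved between the same tissues, where 6.15% of all names were higher and 7.85% lower in Brainstem than in Cerebrum, and their part in the results above was not tested. Of 8 neuronal microRNAs 7 were lower in Brainstem than in Cerebrum (median -1.79; miR-128-3p -3.24, miR-132-3p -2.98), with sums of 13603 to 26406 CPM against 54932 to 84482. All 3 sensory neuron microRNAs were higher (median 5.78; miR-183-5p 5.86, miR-182 5.78), with sums of 109 to 6741 CPM in Brainstem, 41.5 to 285 in Cerebrum and 77472 to 81032 in DRG. Of 4 choroid plexus and ependyma microRNAs 3 were higher (miR-204-5p 2.16, miR-34c-5p 1.34), with sums of 6257 to 30103 CPM against 2105 to 3087. The smooth muscle and fibroblast sum was 13822 to 51203 CPM in Brainstem, 13280 to 27643 in Cerebrum and 47781 to 52184 in DRG, and miR-145-5p was 1 of 4 called (0.94). Blood had 1 of 5 higher (miR-451-5p, 1.00), pancreas 1 of 3 (miR-217-5p, 3.75), and leukocyte (4), endothelium (2) and gut epithelium (3) had 0 higher or lower. In each of the 4 brain regions and DRG every tested microRNA of these lists was detected.

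The neuronal sum was 21548 to 32107 CPM in Cerebellum, which overlapped with Brainstem, and 36819 to 48210 in Hippocampus. The sensory sum was 134 to 7648 CPM in Cerebellum and 40.1 to 140 in Hippocampus, so that DRG stood above every brain sample, while Brainstem and Cerebellum overlapped through rats 9 and 10. RNA integrity numbers of the brain samples were 6 to 8.3, with medians of 8, 8.05, 8.15 and 7.6 in Brainstem, Cerebrum, Cerebellum and Hippocampus.

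Over the 23 tissue means of log2(CPM + 1), miR-219a-2-3p was most like miR-9a-3p (Pearson's r 0.983), miR-9a-5p (0.969), miR-330-3p (0.967), a composite name of mir-1298 (0.965) and miR-383-5p (0.965). Aside from its own 5p arm (0.981), miR-338-3p was most like miR-6325 (0.937), miR-138-5p (0.923), miR-125b-1-3p (0.909), a composite name of mir-331 (0.907) and let-7i-3p (0.906). The 2 leading microRNAs were at 0.866 with each other and at 0.893 without DRG. These are descriptions over 23 means that share rats and sequencing runs. miR-9a-3p, the most like miR-219a-2-3p, was at 848, 883, 1128 and 908 CPM in Brainstem, Cerebrum, Hippocampus and Cerebellum, a flat profile over the brain where miR-219a-2-3p was not flat, and at 40.7 in DRG.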

How the data were processed

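Small RNA libraries (TruSeq small RNA kit, Illumina HiSeq) of 23 rat tissues were analysed from the count table per microRNA name and the count table per isomiR sequence that the authors deposited. Its values are raw counts of reads per name, made by the authors after adapter trimming (cutadapt 1.4.1, per the submitters' processing notes). Of 458 runs, 14 that repeat a flow cell lane were set aside. The others were summed to 215 libraries, of which 7 were left out, and the 208 used gave 200 samples (a rat and tissue, or a DRG pool). The rats are separate animals, while the DRG pools have technical libraries only.

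edgeR 4.0.16 (R 4.3.3) was fitted over all tissues with upper quartile scaling and its filter on low counts, and adjusted p-values refer to the 1593 names tested. DESeq2 1.42.0, TMM, library totals, no filter, other sets of runs and libraries, and leaving out each rat or pool were tried. Against upper quartile scaling, the other scalings moved the median of all names by up to 0.59 on the log2 scale between brain regions and by up to 1.45 between brain and other tissues. Ratios used counts plus 0.5. Ratios and isomiR shares (libraries with at least 100 counts) were compared by two-sided permutation tests with 100000 resamples, or exactly where a group had fewer than 10 samples, in Python 3.11.15 with scipy 1.17.1. Reads were placed on the annotated arm with an exact stretch of at least 15 bases, a 5′ shift of at most 6 and a tail of at most 3 bases. Intervals of shares are 95% Wilson intervals. Tests across names were tested on simulated data.

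The same rats gave several tissues, so the rat pairs them by the labels. The study's methods used no such block, and the fit here has none. Over names, deviations from the tissue means had a median correlation of 0.012 between tissues of the same rat (1866 pairs) and -0.0065 between different rats (16806 pairs), and -0.0022 between 2 brain regions of the same rat (51 pairs).

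Members with a mean above 1 CPM in any tissue are described, with full statistics for miR-219a-2-3p and miR-338-3p. From each list of other microRNAs, counts by direction and the 2 members farthest from 0 between Brainstem and Cerebrum are given where called, and for each leading microRNA the 5 names most like it. The members and the lists were chosen with earlier results of these data known.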

Additional observations from a re-analysis of the deposited data

Results flagged for a closer look

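Single samples that lie far from their group were looked for by Dixon's criterion in 104 groups of 4 to 10 samples. It marked 27 samples. Chance marks about 1 in 20 groups where values are normally spread, which groups with few counts are not. Brainstem of rat 9, also low in miR-10b-5p (766 CPM), was low for both leading microRNAs, at 1335 CPM of miR-219a-2-3p and 6089 CPM of miR-338-3p. Cerebrum of rat 9 had the log2 ratios -2.37 for miR-338-5p over miR-338-3p, -5.08 for miR-219a-5p over miR-219a-2-3p and -0.53 for miR-219a-2-3p over miR-338-3p. Brainstem of rat 11 was at -2.72 for miR-338-5p over miR-338-3p, and Cerebellum of rat 11 at -3.36 for miR-219a-2-3p over miR-338-3p.

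Outside the brain, miR-219a-2-3p stood high at 14.6 CPM in Uterus of rat 7, 6.17 in Muscle - Soleus of rat 11, 3.97 in Duodenum of rat 8, 3.01 in Ileum of rat 11, 1.18 in Liver of rat 9, 1.16 in Stomach_Glandular of rat 9 and 0.594 in WholeBlood of rat 8. Several of these were few counts: 8 in Duodenum, 4 in Liver, 6 in Stomach_Glandular and 5 in WholeBlood. miR-338-3p stood high at 129.7 CPM in Muscle - Biceps of rat 3 and 80.3 CPM in Stomach_Glandular of rat 6.

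The other samples marked were shares of read ends. Another 5′ end was found in 59.8% of miR-219a-2-3p counts, 56.4% of miR-338-3p counts, 67.5% of miR-338-5p counts and 40.5% of miR-219a-5p counts in Brainstem of rat 6, and in 57.6, 56.1, 68.3 and 36.9% in Cerebrum of rat 9. A longer 3′ end of miR-219a-2-3p was found in 2.68% of counts in Brainstem of rat 6 and 3.24% in Cerebrum of rat 9, and another 5′ end of miR-219a-5p in 4.09% in Cerebellum of rat 6. Brainstem of rat 6 and Cerebrum of rat 9 were sequenced in the lane whose runs carried 1 extra 5′ base in a median of 60.4% of the counts of other microRNAs.

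Signals outside the comparisons were also marked. The libraries labelled Duodenum of rats 2, 4 and 7, which were left out, held 709, 614 and 2966 CPM of miR-219a-2-3p and 2819, 2979 and 3882 CPM of miR-338-3p, against 61.8 CPM of miR-338-3p in the left-out Duodenum library of rat 11. The precursor name of miR-219a-2, which holds the loop reads, was at a mean of 47.0 CPM in Brainstem.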

How the results depend on the processing

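For miR-219a-2-3p in Brainstem against Cerebrum (1.23, adjusted p = 0.0601) the direction held under every alternative run. It passed the threshold with TMM (1.50), library totals (1.48), no filter (1.23), the first flow cell (1.52), other flow cells (1.25), 3 further libraries left out (1.20), DESeq2 (1.37), the lane left out (1.24) and the permutation test (1.46, this and the lane chosen after seeing the data). Without single rats it was 1.20 to 1.33, and 8 of those 10 edgeR fits missed the threshold (largest adjusted p = 0.0989). Cerebrum against Cerebellum passed for miR-219a-2-3p with TMM (1.33), totals (1.59), no filter (1.02), DESeq2 (1.47) and permutation (1.58), and for miR-338-3p with totals (0.59), DESeq2 (0.50) and permutation (0.55). By permutation miR-219a-2-3p also differed for Cerebrum against Hippocampus (0.52) and Cerebellum against Hippocampus (-1.06), and miR-338-3p turned to -0.37 in the latter. DRG against brain was -4.03 for miR-219a-2-3p with all libraries under their labels (adjusted p = 0.0552), and without single rats or pools -5.03 to -3.79, and 1.10 to 1.58 for miR-338-3p.

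With the rat as a replicate block miR-219a-2-3p in Brainstem against Cerebrum passed (1.31, adjusted p = 0.0267), and the log2 ratio of miR-219a-5p to miR-219a-2-3p in Brainstem against Cerebellum did not (-0.27, 0.0820). With that block and the runs of the lane kept, 0 isomiR comparisons passed. Without the block, 26 passed without the lane and 7 to 20 without single rats. Neighbours of miR-219a-2-3p in the order of tissues that differed were 5 with TMM. Sex gave 3 calls with DESeq2 and 0 to 1 without single rats. Without single rats the log2 ratio of miR-338-5p to miR-338-3p was -0.37 to -0.11 for Brainstem against Cerebrum and -0.24 to -0.11 against Hippocampus, that of miR-219a-5p to miR-219a-2-3p -0.33 to -0.19 for Brainstem against Cerebellum and -0.23 to -0.18 against Hippocampus, and that of miR-219a-2-3p to miR-338-3p 0.19 to 0.26 for Brainstem against Hippocampus and 0.20 to 0.39 for Cerebrum against Hippocampus. The last ratio was 0.24 for Brainstem against Hippocampus without the lane, and with all libraries under their labels 1.85, and 0.92 for Cerebellum against Hippocampus, a turned sign. The Hippocampus r passed with upper quartile scaling (0.86), as did rho in Hippocampus (0.89) and Cerebrum (0.84).

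Signs also turned for miR-219a-1-3p in brain against other tissues (1.11 with totals, 0.088 with DESeq2), miR-219a-5p in DRG against other tissues (1.48 with totals) and miR-338-5p in Cerebellum against Hippocampus (-0.66 with totals, -0.55 with DESeq2). For another 5′ end they turned, in percentage points, for miR-219a-2-3p in Cerebrum against Cerebellum (-2.98 with the first flow cell, -2.99 without the lane, -3.06 to 2.47 without single rats), miR-338-3p in Brainstem against Cerebellum (-0.57, -0.48, and -0.54 to 5.69 without single rats), Brainstem against Hippocampus (-0.22 to 5.99) and Cerebrum against Cerebellum (-0.49, -0.34, and -0.32 to 5.82), and miR-338-5p in Brainstem against Hippocampus (-3.55 without the lane, -3.81 to 2.54 without single rats). Values for Brainstem against Cerebrum, not past the threshold with all runs, also changed sign without single rats, at -0.99 to 9.12 for miR-219a-2-3p, -6.29 to 5.98 for miR-338-3p and -9.63 to 0.77 for miR-338-5p. Among single rats the sign turned without rat 6 (Brainstem) or rat 9 (Cerebrum), whose libraries were in the lane; for the other changes the cause was not tested. Using all deposited runs changed 0 of 82 results. In Testicle, with the lowest totals, 1 count is worth up to 2.66 CPM, so that low levels of miR-219a-2-3p there rest on few counts.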
